A study of Rattus norvegicus with 15 samples.

Results

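The 9 genes described here belong to the oxidative stress program of the transcription factor NRF2: Nfe2l2, which encodes NRF2 itself, and Nqo1, Hmox1, Srxn1, Gpx2, Akr7a3, Gclc, Gclm and Txnrd1. They were chosen by gene symbol in the platform annotation, and each is read by 1 probe set, so they are 9 of the 14506 genes measured. The study exposed primary rat hepatocytes to flutamide, a nonsteroidal antiandrogen drug associated with liver injury. Cells grew in microfluidic biochips, culture devices through which medium is pumped, and the RNA of each biochip was hybridised to an Affymetrix rat gene array. The exposures compared, each of 24 h, were DMSO solvent (5 arrays), 10 µM flutamide (6 arrays) and 100 µM flutamide (4 arrays). Cells of all 3 groups were seeded in serum-containing medium with insulin on collagen, left to adhere for 24 h, and then perfused with medium that held insulin, transferrin and selenium. The labels give no strain, sex or age of the animals, and do not say whether biochips of a group were filled from different animals or preparations. All p-values therefore rest on the spread among these arrays, which may be technical.

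The biochip numbers in the sample titles fall into 2 runs, 10 to 16 (run 1, 7 arrays) and 20 to 27 (run 2, 8 arrays). Run 1 holds 2 DMSO, 3 10 µM and 2 100 µM arrays, and run 2 holds 3, 3 and 2. The labels do not say what the runs stand for. Because each run holds every dose, the run was a term of the statistical model and doses are also compared within each run.

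NRF2 is held at a low level in unstressed cells by KEAP1, an adaptor protein that marks it for degradation. Oxidants and electrophiles react with cysteines of KEAP1, after which NRF2 accumulates, pairs with small MAF proteins and binds antioxidant response elements in its target genes, where the repressor BACH1 can compete with it. In hepatocytes the targets supply glutathione, reduce peroxides, quinones and aldehydes, and degrade heme, and they are widely used to follow the response to drugs that form reactive metabolites.

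To show where the antioxidant response element sequence lies relative to the starts of these genes, the RefSeq promoter windows of build GRCr8, 250 bases before to 50 bases after each start, were searched on both strands. A window was given for 8 of the 9 genes (9 windows, with 2 starts for Txnrd1), and none for Hmox1. The core TGACNNNGC occurred in 4 of the 9 windows, each of a different member, against 12.1% of all 33469 windows of the same length. In Gclm it lay 172 to 164 bases before the start, in Gpx2 13 to 5 bases before it, at the second Txnrd1 start 78 to 70 bases before it, and in Nfe2l2 39 to 47 bases after it. Srxn1 held no match to the core, but held TGAGTCAGC, an arm of the related MAF recognition element that contains the AP-1 sequence TGAGTCA, from 5 bases before to 4 bases after its start. That longer sequence, which was searched only after the windows had been seen, was found in 0.400% of all windows (134). A match describes the letters in these windows and does not show binding. The lack of a match says nothing of sequence outside the windows, which was not searched. The stretches below are those of Gpx2, the member that differed between runs, Srxn1, the member with the lowest p at 10 µM, and Gclm and Txnrd1, whose matches lie upstream of a start. All are on the gene's strand, 5′ to 3′, and capitals mark the match; in Gpx2, Gclm and Txnrd1 the core is read on the opposite strand. Gpx2 is at chr6:101230034-101230283 (minus strand), Srxn1 at chr3:161064757-161064815 (plus strand), Gclm at chr2:213031938-213031996 (plus strand) and Txnrd1 at chr7:22755949-22756007 (minus strand).
Gpx2: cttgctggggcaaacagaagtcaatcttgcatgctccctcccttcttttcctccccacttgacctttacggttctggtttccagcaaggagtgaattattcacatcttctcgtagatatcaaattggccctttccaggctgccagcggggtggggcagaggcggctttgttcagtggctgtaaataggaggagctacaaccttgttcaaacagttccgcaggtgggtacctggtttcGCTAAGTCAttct
Srxn1: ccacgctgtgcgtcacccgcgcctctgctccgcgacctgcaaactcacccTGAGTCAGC
Gclm: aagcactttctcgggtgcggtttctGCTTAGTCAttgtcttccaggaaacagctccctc
Txnrd1: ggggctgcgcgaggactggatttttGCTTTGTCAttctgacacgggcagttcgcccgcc

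Pairs of arrays correlated at 0.955 to 0.994 over all genes, and 1 array stood apart. The 10 µM array of biochip 23 correlated with the remaining arrays at a median of 0.962 and received a limma quality weight of 0.205. It held the highest value of the 15 arrays for 18.9% of genes and the lowest for 17.4%. The next lowest weights were those of the 100 µM array of biochip 15 (0.427, median correlation 0.978) and the 10 µM array of biochip 24 (0.549, 0.983). All other weights were at 0.910 or above. All 8 hepatocyte markers were measured, and their mean log2 value ran from 11.0 to 11.2 in DMSO, 11.0 to 11.4 at 10 µM and 10.9 to 11.1 at 100 µM. The mean of 14 Kupffer cell and macrophage markers was 6.14 to 7.10 in DMSO, 5.87 to 7.48 at 10 µM and 5.86 to 6.42 at 100 µM, with 9 of the 14 at their highest in biochip 23. Their level summed over the list, as log2, ran from 10.8 to 11.6, from 10.7 to 11.9 and from 10.8 to 11.5. At either dose 0 of the 40 markers measured were called by limma. At 10 µM an unadjusted p was under 0.05 for 4 higher and 3 lower markers, against 7.65% of all genes. As log2 differences from DMSO these were Cd68 (1.17), Ttr (0.41), Apoa1 (0.28), Serpina1 (0.19), Mrc1 (-0.90), Hnf4a (-0.62) and Pecam1 (-0.40). At 100 µM they were Cd68 (1.18), Mrc1 (-1.16), Cps1 (-0.70) and Adgre1 (-0.64), against 6.85% of all genes. Levels were not compared with a background, so no marker can be placed at 0. In such bulk samples fewer cells of a type and less RNA per cell cannot be told apart.

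None of the 9 genes passed the test for a change at either flutamide dose, at an adjusted p under 0.05. The one clear difference among them was that of Gpx2 between the biochip runs. In the limma fit over all genes 0 of 9 members passed at 10 µM and 0 of 9 at 100 µM, where 0% and 0% of all genes passed. Without adjustment, p was under 0.05 for 3 members at 10 µM, with Srxn1 higher and Gpx2 and Akr7a3 lower, against 7.65% of all genes. At 100 µM it was under 0.05 for 1 member, Gpx2, which was lower, against 6.85% of all genes. In the test for any difference among the 3 groups it was under 0.05 for 2 members, Srxn1 and Akr7a3, against 6.65% of all genes, and 0% of genes were called. The comparisons share the DMSO arrays, so their values are set side by side and not counted as separate evidence. The median log2 difference of the 9 members was 0.05 at 10 µM and -0.00 at 100 µM, against -0.00 and 0.02 over all genes. A log2 difference of 1 is a 2-fold difference.

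**Figure D1:**
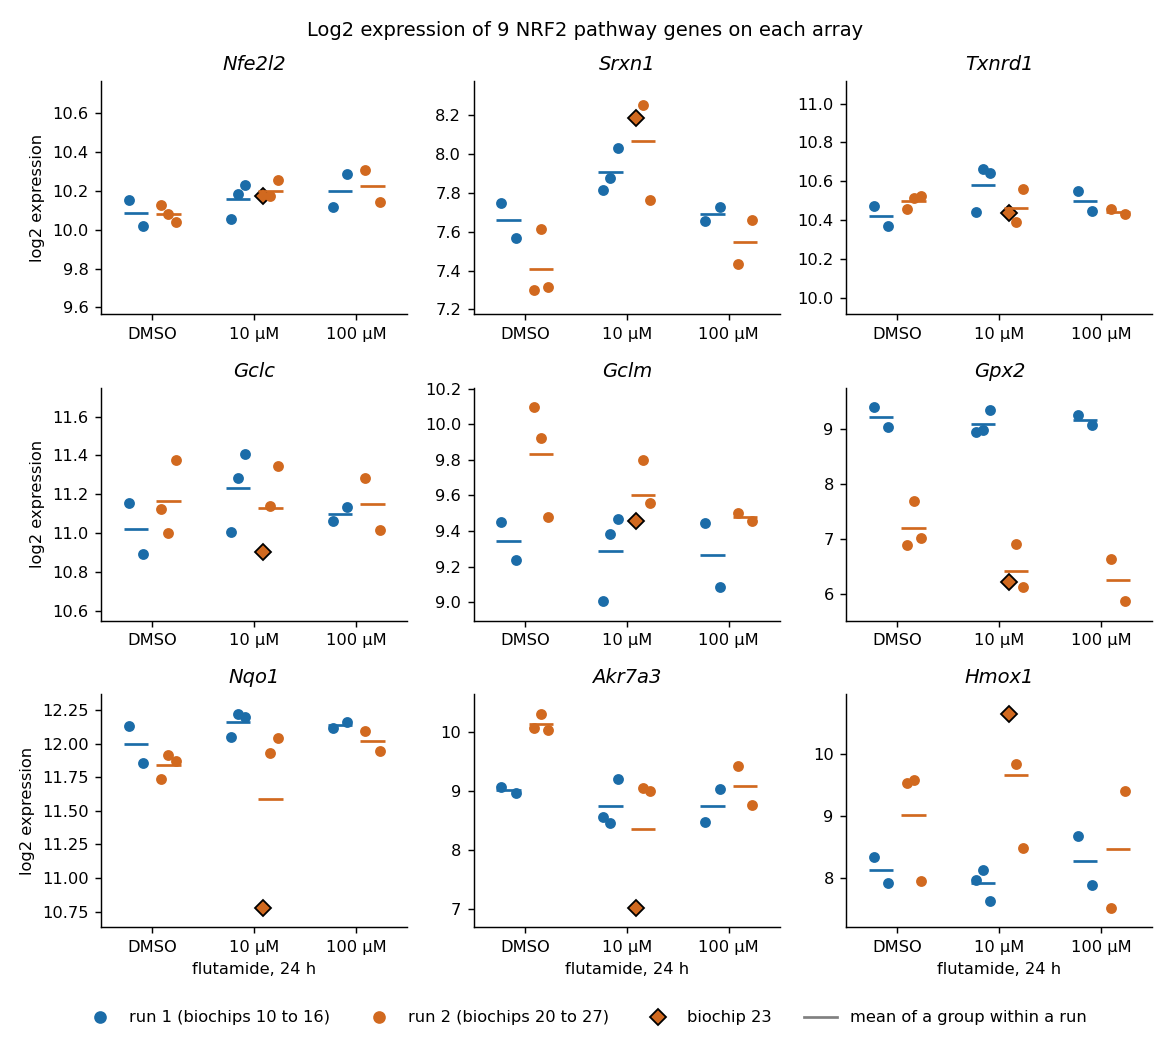
Log2 expression (vertical axis, a scale of its own for each gene) of the 9 genes on each of the 15 arrays, by flutamide exposure (horizontal axis) and biochip number run (colour). Diamonds mark biochip 23 and lines the mean of a group within a run. Gpx2 splits by run in every group, at 8.95 to 9.40 in run 1 and 5.87 to 7.69 in run 2, while all 10 µM values of Srxn1 lie above all DMSO values.

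Nfe2l2, the regulator itself, stayed within a narrow band. Its log2 expression in DMSO was 10.15, 10.02, 10.13, 10.08 and 10.04, at 10 µM it ran from 10.06 to 10.26 with a median of 10.18, and at 100 µM it was 10.12, 10.29, 10.31 and 10.15. The groups overlap, with the highest values among the treated arrays. The log2 difference from DMSO was 0.10 (SE 0.06, adjusted p = 0.775) at 10 µM and 0.13 (SE 0.07, adjusted p = 0.765) at 100 µM. The 95% intervals ended at 1.17-fold and 1.22-fold of DMSO, so larger increases of its mRNA lay outside them. NRF2 is controlled mainly through the stability of its protein, which was not measured here. Within run 2 all treated values of Nfe2l2 lay above all DMSO values at both doses, which holds for either direction in 16.3% of all genes at 10 µM and 29.3% at 100 µM.

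Gclc and Gclm encode the catalytic and modifier subunits of glutamate-cysteine ligase, which carries out the rate-limiting step of glutathione synthesis. Gclc was at 11.15, 10.89, 11.12, 11.00 and 11.37 in DMSO, at 10.90 to 11.41 (median 11.21) at 10 µM, and at 11.06, 11.13, 11.28 and 11.01 at 100 µM. The 3 groups cover the same range. Its log2 difference was 0.07 (SE 0.11, adjusted p = 0.934) at 10 µM and 0.02 (SE 0.12, adjusted p = 0.985) at 100 µM, with upper 95% limits of 1.24-fold and 1.21-fold of DMSO. For the modifier subunit Gclm, DMSO arrays read 9.45, 9.24, 10.10, 9.92 and 9.48, the 10 µM arrays 9.01 to 9.80 (median 9.46), and the 100 µM arrays 9.45, 9.08, 9.50 and 9.45. The 2 highest Gclm values were both DMSO arrays of run 2, and the groups overlap. Its log2 difference was -0.16 (SE 0.13, adjusted p = 0.835) at 10 µM and -0.23 (SE 0.14, adjusted p = 0.784) at 100 µM.

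Txnrd1, the cytosolic thioredoxin reductase, was as steady as Nfe2l2. It was at 10.47, 10.37, 10.46, 10.51 and 10.53 in DMSO, at 10.39 to 10.66 (median 10.50) at 10 µM, and at 10.55, 10.45, 10.45 and 10.43 at 100 µM. All groups overlap over less than a 1.23-fold range. The log2 difference was 0.05 (SE 0.07, adjusted p = 0.929) at 10 µM and -0.00 (SE 0.07, adjusted p = 0.999) at 100 µM, and the upper 95% limits were 1.14-fold and 1.12-fold of DMSO.

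Srxn1 encodes sulfiredoxin, the enzyme that returns overoxidised peroxiredoxins to their active form. Its DMSO values were 7.75, 7.57, 7.30, 7.61 and 7.32, its 10 µM values ran from 7.76 to 8.25 with a median of 7.95, and its 100 µM values were 7.65, 7.73, 7.43 and 7.66. Every 10 µM array lay above every DMSO array and above every 100 µM array, while the DMSO and 100 µM arrays overlap, as they do for all 9 members (2.06% of all genes do not overlap there). The gap between the highest DMSO value, in biochip 10, and the lowest 10 µM value, in biochip 25, was narrow, and these belong to different runs. Groups that do not overlap occurred in 0.634% of all genes for 10 µM against DMSO. At 10 µM the log2 difference was 0.47 (SE 0.11), which is 1.39-fold of DMSO with a 95% interval of 1.17 to 1.64; it ranked 40 of 14506 by p and did not pass after adjustment (adjusted p = 0.317). At 100 µM the log2 difference from DMSO was 0.10 (SE 0.12, adjusted p = 0.903). The direct comparison of 100 µM with 10 µM gave -0.37 (SE 0.12, adjusted p = 0.930). Srxn1 was the 1 member with an unadjusted p under 0.05 there, against 4.98% of all genes, and the 1 member without overlap, against 0.827%, while 0% of genes were called. The other 8 members lay between -0.41 (Hmox1) and 0.37 (Akr7a3). Srxn1 at 10 µM was above DMSO by 0.25 within run 1 and by 0.66 within run 2, with no overlap in either run. It was 1 of 9 members without overlap in run 1, against 25.5% of all genes, and 1 of 3 in run 2, with Nfe2l2 and Akr7a3, against 16.3%. The difference between these 2 values was 0.41 (SE 0.21, adjusted p = 0.530). Biochip 23 held the 2nd highest Srxn1 value, and without it the 10 µM difference was 0.42.

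Gpx2, the glutathione peroxidase best known from the gut epithelium, separated the runs rather than the doses. In run 1 it was at 9.40 and 9.03 in DMSO, at 8.95, 8.98 and 9.34 at 10 µM, and at 9.26 and 9.07 at 100 µM. In run 2 it was at 6.90, 7.69 and 7.02 in DMSO, at 6.21, 6.91 and 6.13 at 10 µM, and at 6.63 and 5.87 at 100 µM. Every array of run 2 lay below every array of run 1. Gpx2 was lower in run 2 by a log2 difference of -2.52 (SE 0.19, 95% interval -2.92 to -2.12), a 5.74-fold lower level, and passed the test (adjusted p = 9e-06, rank 3 of 14506). It was the 1 member of 9 that differed between runs, against 0.545% of all genes, and the 1 member whose runs do not overlap, against 0.614% of all genes. The run difference was -2.01 in DMSO, -2.67 at 10 µM and -2.91 at 100 µM, so it was present in cells that had received solvent alone. Of the 40 cell type markers measured, 0 were called between runs by limma, against 0.545% of all genes. An unadjusted p was under 0.05 for 6 of the 40, against 11.0% of all genes. Of these, Cd68 was at -1.42 (SE 0.32, adjusted p = 0.0708) and Apoa1 at -0.30 in run 2 against run 1, while Fgb was at 0.44, Cdh5 at 0.29, Kdr at 0.35 and Lyve1 at 0.49. The mean of the 5 measured endothelial markers ran from 4.36 to 4.63 in run 1 and from 4.45 to 5.07 in run 2, with DMSO arrays at 4.51 and 4.49 in run 1 and at 4.91, 4.89 and 4.94 in run 2. That of the Kupffer cell and macrophage markers ran from 6.22 to 6.72 and from 5.86 to 7.48, and that of the hepatocyte markers from 11.0 to 11.2 and from 10.9 to 11.4. Their part in the Gpx2 difference was not tested.

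The dose difference of Gpx2 was -0.51 (SE 0.22, adjusted p = 0.610) at 10 µM and -0.55 (SE 0.24, adjusted p = 0.723) at 100 µM. Without DMSO biochip 21 these were -0.33 and -0.38, and without biochip 27 the 100 µM value was -0.33. Within run 1 the differences were -0.13 and -0.05, and within run 2 -0.78 and -0.95. In run 2 both 100 µM values lay below all DMSO values. Within run 2 at 100 µM, 5 of 9 members did not overlap with DMSO, against 29.3% of all genes. Of these, Nfe2l2 and Nqo1 were higher and Gpx2, Akr7a3 and Txnrd1 lower. Within run 1 it was 0 of 9, against 30.6%. For Gpx2 the run difference of the 100 µM effect was -0.90 (SE 0.44, adjusted p = 0.851), and that of the 10 µM effect was -0.66 (SE 0.40, adjusted p = 0.584). In those tests 0 of 9 members passed, against 0.00689% and 0.0414% of all genes. Without adjustment p was under 0.05 for 0 members at 100 µM and for 1, Akr7a3, at 10 µM, against 6.08% and 10.2% of all genes.

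**Figure D2:**
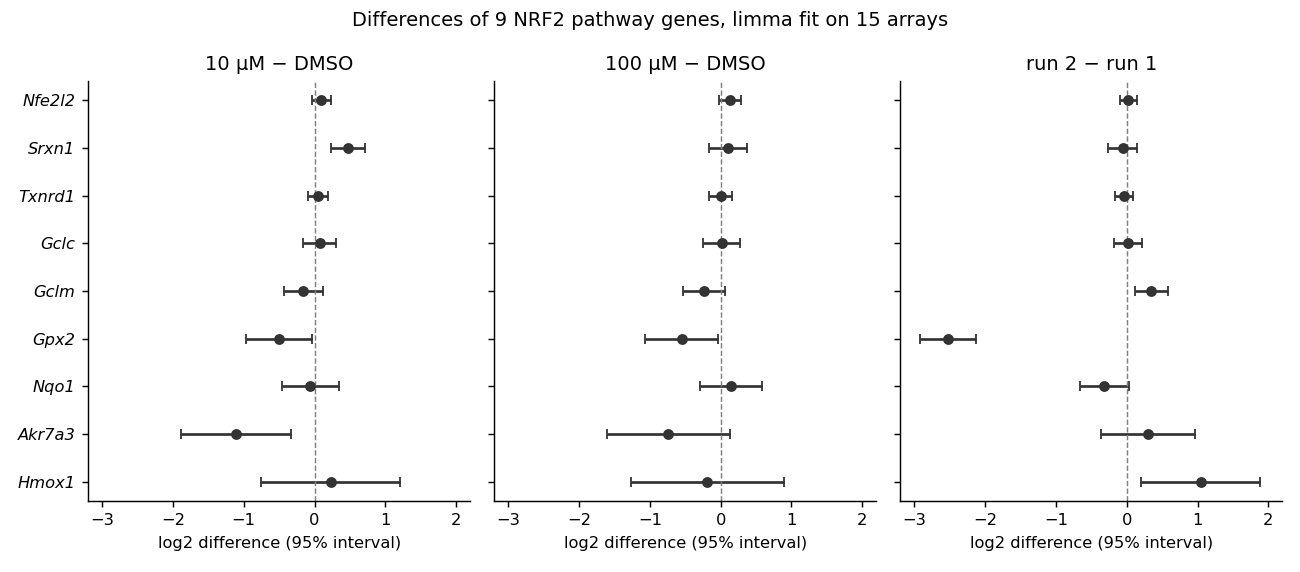
Log2 differences of the 9 genes with 95% intervals (horizontal axis) from the limma fit on 15 arrays, for each dose against DMSO and for run 2 against run 1. Dose intervals that exclude 0 belong to Srxn1, Gpx2 and Akr7a3 at 10 µM and to Gpx2 at 100 µM, none of which passed after adjustment, and Gpx2 between runs is the sole adjusted call.

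Nqo1 encodes NAD(P)H quinone dehydrogenase, which reduces quinones by a two-electron step and is among the most used NRF2 indicators. It was at 12.14, 11.86, 11.74, 11.92 and 11.87 in DMSO, at 10.78 to 12.22 (median 12.05) at 10 µM, and at 12.12, 12.16, 12.10 and 11.94 at 100 µM. The groups overlap, and the lowest value of all 15 arrays was that of biochip 23. Its log2 difference was -0.06 (SE 0.19, adjusted p = 0.981) at 10 µM and 0.15 (SE 0.21, adjusted p = 0.921) at 100 µM. Without biochip 23 the 10 µM value was 0.16, so that its direction turned. Within run 1 it was 0.16 and within run 2, which holds that array, -0.26; at 100 µM it was 0.14 and 0.18.

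Akr7a3, an aldo-keto reductase known for reducing the dialdehyde of aflatoxin, had the largest differences from DMSO of the 9 genes. It was at 9.06, 8.96, 10.07, 10.31 and 10.03 in DMSO, at 7.01 to 9.20 (median 8.77) at 10 µM, and at 8.46, 9.02, 9.41 and 8.76 at 100 µM. The 3 highest values were the run 2 DMSO arrays, which all treated arrays lay below, whereas the run 1 DMSO values lay among the treated ones. The log2 difference was -1.11 (SE 0.36, adjusted p = 0.457) at 10 µM, a 2.16-fold lower level, and -0.74 (SE 0.40, adjusted p = 0.775) at 100 µM. Within run 1 it was -0.27 at both doses, and within run 2 it was -1.78 at 10 µM and -1.05 at 100 µM. The run difference of its 10 µM effect was -1.51 (SE 0.66, adjusted p = 0.470), and without biochip 23 it was -0.84. Biochip 23 held the lowest of all 15 values, and without it the 10 µM difference was -0.71 (adjusted p = 0.344).

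Hmox1 encodes heme oxygenase 1, which degrades heme to biliverdin, iron and carbon monoxide and is strongly expressed in macrophages as well as in stressed hepatocytes. It was at 8.34, 7.93, 9.54, 9.57 and 7.96 in DMSO, at 7.64 to 10.65 (median 8.32) at 10 µM, and at 8.67, 7.89, 7.53 and 9.41 at 100 µM. Low and high values occur in every group, with the highest in biochip 23. Its log2 difference was 0.23 (SE 0.46, 95% interval -0.75 to 1.21, adjusted p = 0.965) at 10 µM and -0.19 (SE 0.51, 95% interval -1.27 to 0.90, adjusted p = 0.965) at 100 µM. These intervals span from 0.594-fold to 2.31-fold and from 0.414-fold to 1.86-fold of DMSO, so a 2-fold higher level at 10 µM lies within its interval. Without biochip 23 the 10 µM difference turned to -0.09. The array of biochip 23 also held the highest mean of the Kupffer cell and macrophage markers, at 7.48, followed by the DMSO array of biochip 21 at 7.10. Of the 14, the 9 at their highest there were Cd163, Marco, Clec4f, Csf1r, Vsig4, C1qa, C1qb, C1qc and Ptprc. Mrc1 and Adgre1 were highest in biochip 21, and Cd68, Cd14 and Lyz2 were at 9.85, 9.60 and 6.68 in biochip 23, against medians of 9.85, 9.71 and 7.23 over all arrays. Biochip 23 also held the highest mean of the hepatocyte markers (11.4, with 5 of 8 at their highest), of the stellate cell and fibroblast markers (5.73, with 4 of 8) and of the endothelial markers (5.07, with 1 of 5). The mean of the 5 measured cholangiocyte markers was at its lowest there (5.37), with 1 marker at its highest and 1 at its lowest. The part of any of these cell types in the Hmox1, Nqo1 and Akr7a3 values of biochip 23 was not tested.

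**Figure D3:**
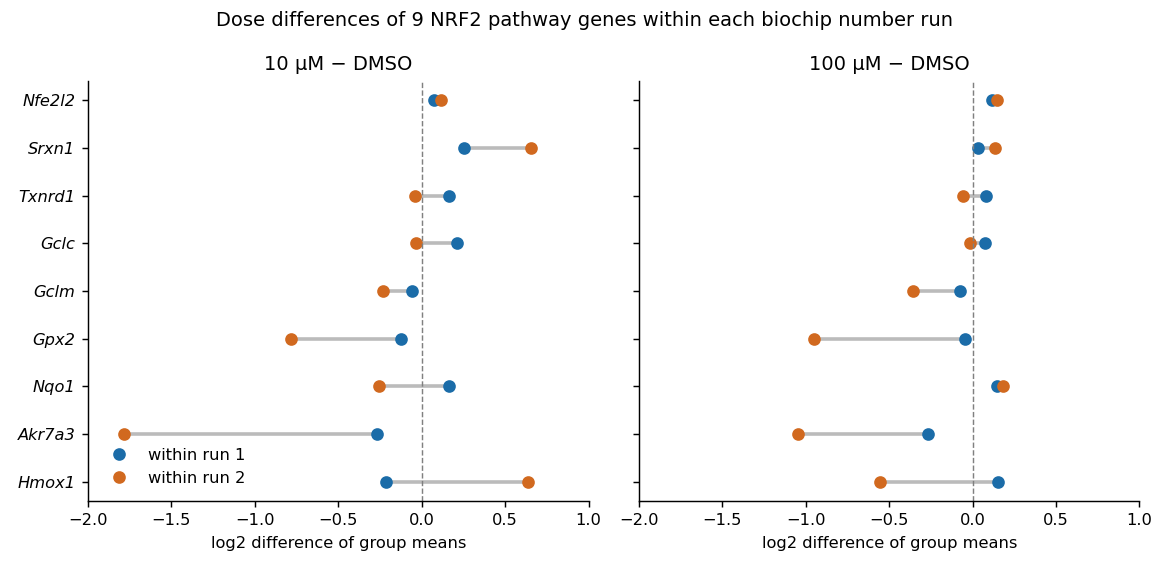
Log2 differences of group means from DMSO (horizontal axis) for the 9 genes, computed within run 1 and within run 2, at 10 µM and 100 µM. Akr7a3 (-0.27 and -1.78 at 10 µM) and Gpx2 (-0.05 and -0.95 at 100 µM) lie far apart between runs. Hmox1, Gclc and Txnrd1 take opposite signs in the runs at both doses, and Nqo1 does so at 10 µM.

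Between runs, members other than Gpx2 did not pass. Without adjustment p was under 0.05 for 3 members, Gpx2, Hmox1 and Gclm, against 11.0% of all genes. Hmox1 had the next largest difference, 1.04 higher in run 2 (SE 0.39, adjusted p = 0.324), with run 1 values of 7.64 to 8.67 and run 2 values of 7.53 to 10.65. Gclm was at 0.34 (SE 0.11, adjusted p = 0.214), Nqo1 at -0.31 (SE 0.16, adjusted p = 0.505) and Akr7a3 at 0.30 (SE 0.31, adjusted p = 0.799). Nfe2l2, Srxn1, Gclc and Txnrd1 lay between -0.06 and 0.02.

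The members differed widely in how far they varied among arrays of the same group and run. Hmox1 had a standard deviation of 0.84 on the log2 scale, exceeded by 0.300% of all genes, and Akr7a3 one of 0.62, exceeded by 1.55%. Gpx2 and Nqo1 followed at 0.36 and 0.34. Nfe2l2 and Txnrd1 were at 0.08, with 94.5% and 95.5% of genes above them, and the median over all genes was 0.18. Over all 15 arrays the range spanned 11.5-fold for Gpx2, 9.81-fold for Akr7a3 and 8.69-fold for Hmox1, against 1.22-fold for Nfe2l2. The same log2 difference is therefore easier to detect in Nfe2l2 or Txnrd1 than in Hmox1 or Akr7a3.

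Beyond the 9 members, 93 further genes of the pathway were listed by function in 8 lists, of which 85 were measured. None passed the test at 10 µM or 100 µM. At an unadjusted p under 0.05, 3 were higher and 11 lower at 10 µM (16.5% of the 85, against 7.65% of all genes), and 3 were higher and 6 lower at 100 µM (10.6%, against 6.85%). Over all genes such differences split into 555 higher and 554 lower at 10 µM, and 497 and 496 at 100 µM. By sign alone 33 of the 85 were higher and 52 lower at 10 µM, and 36 higher and 49 lower at 100 µM. Over all genes 7126 were higher and 7380 lower at 10 µM, and 8077 higher and 6429 lower at 100 µM, and the counts by list that follow are descriptions to be read beside that split. The median log2 difference was -0.06 at both doses, against -0.00 and 0.02 over all genes.

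Among 13 regulators and partners of NRF2, 8 were higher at 10 µM and 10 at 100 µM, with medians of 0.08 and 0.08. Keap1 was at -0.06 (SE 0.16) and 0.09 (SE 0.17), and the small MAF gene Mafg at 0.05 (SE 0.10) and 0.08 (SE 0.11). Its relative Mafk was at 0.37 (SE 0.14, adjusted p = 0.539) at 10 µM, and Sqstm1, whose p62 protein binds KEAP1, at 0.23 (SE 0.09, adjusted p = 0.590) at 10 µM and 0.05 (SE 0.10) at 100 µM. The repressor gene Bach1 was at 0.15 (SE 0.19) at 10 µM and -0.50 (SE 0.21, adjusted p = 0.708) at 100 µM. Palb2, a DNA repair gene whose protein binds KEAP1, was at 0.52 (SE 0.16, adjusted p = 0.649) at 100 µM.

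Of 12 genes of glutathione synthesis and use, 10 were lower at 10 µM and 9 at 100 µM, with medians of -0.24 and -0.15, and 0 passed. Gpx1, the main cytosolic glutathione peroxidase, was at -0.31 (SE 0.10, adjusted p = 0.431) and -0.30 (SE 0.11, adjusted p = 0.663). Slc3a2, the heavy chain of the cystine transporter, was at -0.46 (SE 0.17, adjusted p = 0.522) at 10 µM. Its light chain Slc7a11 was at -0.32 (SE 0.34) and -0.01 (SE 0.38), and glutathione reductase, Gsr, at -0.14 (SE 0.15) and -0.05 (SE 0.16). Chac1, which degrades glutathione, was at 0.52 (SE 0.19, adjusted p = 0.682) at 100 µM.

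The 11 measured genes of the thioredoxin and peroxiredoxin list had medians of 0.00 and 0.03. Thioredoxin, Txn1, was at 0.02 (SE 0.06) and 0.05 (SE 0.06), and Prdx1 at 0.00 (SE 0.08) and 0.06 (SE 0.09). Msrb1, a methionine sulfoxide reductase, was at 0.33 (SE 0.13, adjusted p = 0.559) and 0.28 (SE 0.15), and Prdx2 at -0.21 (SE 0.11) and -0.26 (SE 0.12, adjusted p = 0.726). Of the 4 measured genes that supply NADPH, 3 were lower at each dose; malic enzyme Me1 was at -0.29 (SE 0.15) and -0.21 (SE 0.16), and Idh1 at -0.45 (SE 0.19, adjusted p = 0.610) and -0.30 (SE 0.21).

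Of 13 genes that reduce quinones, carbonyls and epoxides or otherwise detoxify them, 11 were lower at 10 µM and 8 at 100 µM, with medians of -0.07 and -0.10. Epoxide hydrolase Ephx1 was at -0.20 (SE 0.10) at 10 µM, biliverdin reductase Blvrb at -0.35 (SE 0.19) at 100 µM, and the fatty aldehyde dehydrogenase Aldh3a2 at -0.30 (SE 0.15) and -0.28 (SE 0.17). Of 15 measured glutathione transferase, glucuronosyltransferase and efflux genes, 12 were lower at each dose, with medians of -0.16 and -0.18, and 0 passed. Mgst1 was at -0.26 (SE 0.09, adjusted p = 0.488) and -0.30 (SE 0.10, adjusted p = 0.649), and Gstp1 at -0.30 (SE 0.19) and -0.05 (SE 0.21). Without biochip 23 the 10 µM value of Gstp1 was -0.077.

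Gsta3, an alpha-class glutathione transferase, was at -0.74 (SE 0.20, adjusted p = 0.350) at 10 µM and -0.66 (SE 0.22, adjusted p = 0.649) at 100 µM, and its 2 runs differed. In run 1 the DMSO arrays were at 8.17 and 8.29 and the 10 µM arrays between 8.20 and 8.27. In run 2 the DMSO arrays were between 9.02 and 9.12 and the 10 µM arrays between 7.69 and 7.80. The 10 µM difference was 0.01 within run 1 and -1.32 within run 2, and the test of that difference passed (-1.33, SE 0.16, adjusted p = 0.0116). The call was lost without any 1 of 4 run 1 arrays, DMSO biochips 10 and 11 and 10 µM biochips 12 and 14 (adjusted p 0.0531 to 0.0643). This was the 1 gene of the 8 lists called for that test, and Akr7a3 likewise had its high DMSO values and its larger difference in run 2. At an unadjusted p under 0.05, 1 listed gene was higher and 16 were lower in that test. That is 20% of the 85 measured, against 10.2% of all genes (516 higher and 969 lower). Within runs 1 and 2 the 10 µM difference was 0.06 and -0.87 for Slc3a2, and 0.10 and -0.91 for Idh1. These genes also had higher DMSO means in run 2. By sign, 31 of the 85 were higher and 54 lower (7708 and 6798 of all genes).

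In the heme and iron list, 7 genes had medians of 0.03 and -0.16. Ferrochelatase, Fech, was at -0.48 (SE 0.20, adjusted p = 0.611) and Hmox2 at 0.26 (SE 0.15) at 10 µM. At 100 µM the iron exporter Slc40a1 was at -0.39 (SE 0.21) and the heme transporter Slc48a1 at -0.31 (SE 0.15), and the ferritin light chain Ftl1 was at 0.08 (SE 0.06) and 0.06 (SE 0.07) at the 2 doses. Among 10 other antioxidant and stress genes the metallothioneins Mt1 (0.19, SE 0.12, and 0.24, SE 0.13) and Mt2A (0.32, SE 0.16, and 0.29, SE 0.17) had the lowest p. Trib3, a pseudokinase induced by ATF4, was the 1 listed gene called between runs, higher in run 2 by 0.68 (SE 0.12, adjusted p = 0.0253), with values of 6.75 to 7.41 in run 1 and 7.28 to 8.12 in run 2. That call was lost without any 1 of 7 arrays, biochips 10, 11, 13, 14, 16, 20 and 27 (adjusted p 0.0526 to 0.0695).

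**Figure D4:**
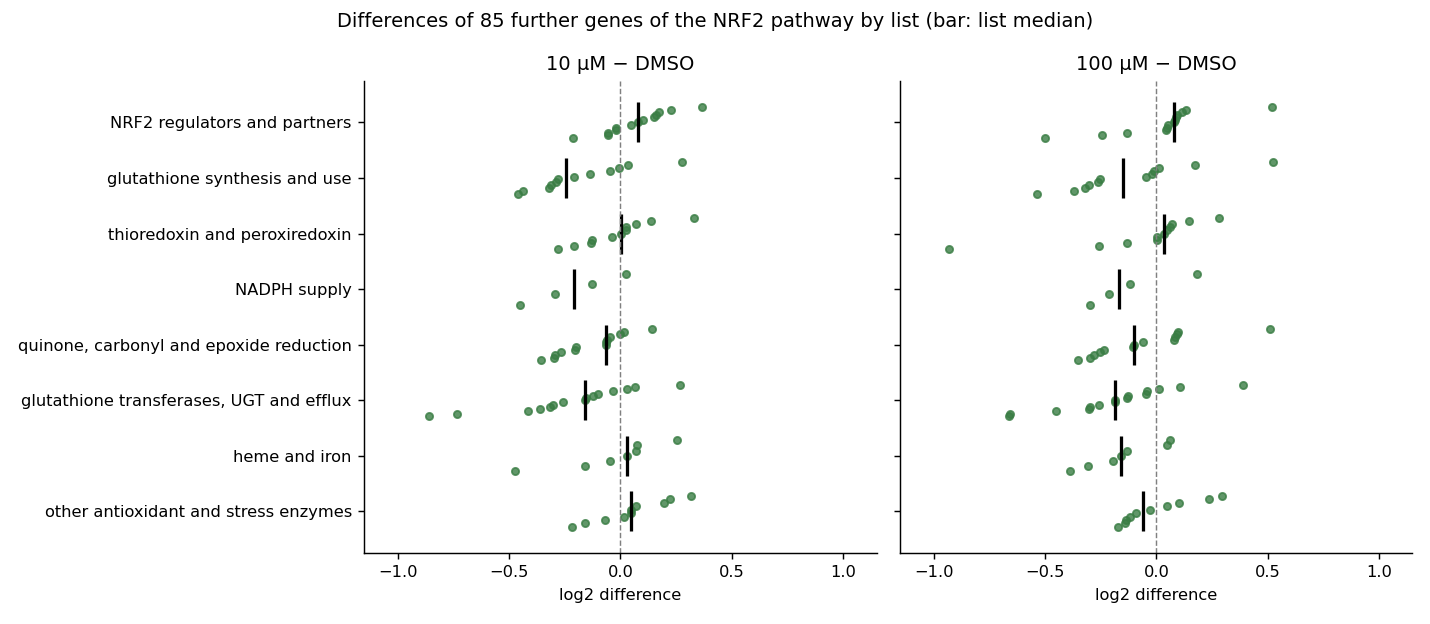
Log2 differences from DMSO (horizontal axis) of the 85 further genes of the pathway at each dose, by list; each point is a gene and each bar the list's median. The glutathione synthesis and use list has medians of -0.24 at 10 µM and -0.15 at 100 µM, and no gene passed at either dose.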

How the data were processed

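Expression was measured on 15 Affymetrix arrays. Log2 values per probe set are as the authors deposited them, made with RMA and Partek per the submitters' processing notes (versions not given in the sources used here). RMA quantile-normalizes arrays, so a change shared by most genes would not be seen. Arrays have no read depth, and their number limits the precision. No table column belonged to another sample (0).

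Of 29214 probe sets, 15310 held 1 gene symbol in the platform annotation, and the 13904 others were left out. Symbols were updated through RefSeq (GRCr8). For genes with several probe sets, the one of highest mean was used (14506 genes). limma 3.58.1 (R 4.3.3) was fitted to all 15 arrays with dose and biochip number run as terms (11 residual degrees of freedom), and p-values were adjusted over all genes by Benjamini-Hochberg, with 0.05 as the threshold. A further fit added a dose by run term. The fit was tested on simulated data.

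The members and gene lists were chosen with earlier results of these data known. The text names every member, every called gene of a list, the 2 genes of lowest p of each list at each dose, and a preset group of pathway genes. Listed genes not analysed here include Sesn2, Pgd, Gsta2, Gsta5, Ugt1a6, Ugt1a1 and Mt2, and the markers Stab2, Vwf, Clec4g and Sox9. Alternatives were no run term, each run alone, array quality weights, renewed quantile normalization, dim genes left out (mean log2 under 5), a trended and robust prior, each array left out, and biochips 15, 23 and 24 left out together.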

Additional observations from a re-analysis of the deposited data

Results flagged for a closer look

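Of 27 combinations of a member and a group, 3 held an array far from the others of its group. Chance gives about 1 in 20 for independent tests, but tests within a group share arrays, and each group pools the runs. The 10 µM cases are all biochip 23, which held the lowest value for 17.41% of all genes and the highest for 18.85%. The share of such cases over all genes was not counted, so whether the members hold an excess was not tested. For Nqo1 at 10 µM, biochip 23 was at 10.78 and the other 5 arrays at 11.93 to 12.22. For Akr7a3 at 10 µM, biochip 23 was at 7.01 and the others at 8.46 to 9.20. For Gclm at 100 µM, biochip 16 was at 9.08 and the other 3 arrays at 9.45 to 9.50.

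The 10 µM effect on Gsta3 differed between runs by a log2 difference of -1.33 (SE 0.16), by a limma interaction test (adjusted p = 0.0116). Its 10 µM arrays were lower than DMSO in 3 of 3 arrays of run 2, and lay within the DMSO range in run 1.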

How the results depend on the processing

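Over the 23 alternatives Nfe2l2, Srxn1, Gpx2, Akr7a3 and Gclm kept their direction at both doses, and 0 members passed at either dose. The 10 µM difference of Srxn1 ranged from 0.25 to 0.66, with adjusted p from 0.180 to 0.724 when single arrays were left out. The run difference of Gpx2 ranged from -2.63 to -2.41 in the 20 alternatives with a run term, and was called each time. Where a value turned or a count moved, the cause was not tested. No paired analysis was possible because no biochip number occurs in more than 1 group.

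The count of genes called at 10 µM (0) was 7 in run 2 alone, 1 with array weights and 1 with renewed quantile normalization, and 0 to 1 with single arrays left out (1 without DMSO biochip 11 or 22). At 100 µM (0) it was 1 in run 2 alone. For any difference among groups (0) it was 3 in run 2 alone, 1 with weights and 1 with quantile normalization, and 0 to 1 with single arrays left out (1 without DMSO biochip 22). Between runs (79) it was 191 with weights and 37 to 129 with single arrays left out, lowest without DMSO biochip 11 and highest without biochip 23. For the run difference of the 10 µM effect (6) it was 34 with weights, 3 with quantile normalization, 2 without dim genes, 2 with the trended prior, 3 without biochips 15, 23 and 24, and 2 to 116 with single arrays left out, highest without 10 µM biochip 25. For that of the 100 µM effect (1) it was 2 with weights, 2 with quantile normalization, 5 without the 3 biochips, and 0 to 22 with single arrays left out, highest without 100 µM biochip 16. The Gsta3 run difference was at an adjusted p of 0.0574 with the trended prior, and the Trib3 difference between runs at 0.0655 without the 3 biochips. Gsta3 passed at 10 µM in run 2 alone (-1.32, adjusted p = 0.00691).

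Directions turned as follows. With no run term, Prdx1 was at -0.0016 at 10 µM and Txnrd1 at 0.0024 at 100 µM. In run 1 alone the 10 µM values were Nqo1 0.16, Hmox1 -0.21, Mafg -0.14, Slc7a11 0.32, Gsr 0.069, Txn1 -0.034, Me1 0.060, Gstp1 0.0028, Slc3a2 0.060, Idh1 0.10, Ephx1 0.026, Aldh3a2 0.045, Gsta3 0.013 and Fech 0.018. At 100 µM they were Hmox1 0.15, Txnrd1 0.077, Slc7a11 0.42, Prdx1 -0.024, Me1 0.074, Gstp1 0.014, Slc40a1 0.10, Mt1 -0.0735 and Mt2A -0.20. In run 2 alone Gclc was at -0.037, Txnrd1 at -0.038 and Prdx1 at -0.0054 at 10 µM, and Gclc at -0.018 and Keap1 at -0.035 at 100 µM. With weights Nqo1 was at 0.15, Hmox1 at -0.17, Mafg at -0.023, Slc7a11 at 0.069 and Gsr at 0.017 at 10 µM, and Gsr at 0.0077 at 100 µM. With quantile normalization Txnrd1 was at 0.021 at 100 µM. Without biochips 15, 23 and 24, Nqo1 was at 0.18, Hmox1 at -0.35, Bach1 at -0.010, Mafg at -0.068, Slc7a11 at 0.15 and Gsr at 0.051 at 10 µM, Keap1 at -0.053, Mafg at -0.0012 and Gsr at 0.0145 at 100 µM, and Txnrd1 at 0.028 between runs.

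With single arrays left out, the 10 µM values ran from -0.14 to 0.16 for Nqo1, -0.087 to 0.42 for Hmox1, -0.16 to 0.0395 for Keap1, -0.043 to 0.25 for Bach1, -0.016 to 0.099 for Mafg, -0.57 to 0.037 for Slc7a11, -0.0021 to 0.043 for Txn1 and -0.033 to 0.057 for Prdx1. The 100 µM values ran from -0.47 to 0.34 for Hmox1, -0.047 to 0.081 for Gclc, -0.039 to 0.017 for Txnrd1, -0.052 to 0.19 for Keap1, -0.0078 to 0.17 for Mafg, -0.26 to 0.10 for Slc7a11, -0.16 to 0.025 for Gsr, -0.016 to 0.11 for Sqstm1 and -0.11 to 0.011 for Gstp1. Between runs Gclc ran from -0.030 to 0.068.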

Other observations

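For each member, the genes whose log2 values followed it most closely over the 15 arrays are given as a description. The arrays share dose groups, runs and biochip 23. Nqo1 was followed by Slc4a1ap (r = 0.96) and Mtg2 (0.95), with lower values within run 1 (0.51 and 0.48) than within run 2 (0.98 and 0.97). Run 2 holds biochip 23, which was the lowest of the 15 arrays for Nqo1 (10.78), Slc4a1ap (7.34) and Mtg2 (5.49). Correlations without that array were not computed. Gclm was followed by Acat1, a mitochondrial thiolase, at 0.91 over all arrays, 0.98 within run 1 and 0.95 within run 2, and by Fnbp1l at 0.88. Akr7a3 was followed by Abcc3, an efflux transporter for conjugates, at 0.92 over all arrays, 0.65 within run 1 and 0.95 within run 2, and by Ccdc47 at 0.92. Biochip 23 was also the lowest array for Akr7a3 (7.01), Abcc3 (8.46) and Ccdc47 (9.48).

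Gpx2 was followed by Pla1a and Timd2, both at 0.93 over all arrays. Within a run these were at 0.19 and 0.38 for Pla1a and at -0.03 and 0.02 for Timd2, so the likeness lay in the difference between runs. The genes most like the others were Irf2bp1 (0.88) and RGD1559575 (0.85) for Hmox1, Fpgt (0.88) and Isca1 (0.88) for Srxn1, Dync1li1 (0.83) and Ppid (0.78) for Txnrd1, Atxn1 (0.81) and Or2b2 (0.77) for Gclc, and Med19 (0.80) and Galp (0.79) for Nfe2l2. Of these, Or2b2 (3.24 to 3.58), Galp (4.83 to 5.17) and RGD1559575 (4.05 to 4.91) were dim. All their values lay below the array medians over all probe sets (5.38 to 5.51).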
